A study of Homo sapiens with 8 samples.

Results

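The regions described here are H3K27me3 islands of the LY19WT lymphoma line that had no island of the LY19Y646F line within 10 kb on either side. They were chosen by that distance, on the 18 autosomes other than 4, 13, 14 and 15, where the input of 1 line was shifted, and at no more than 25 input reads per kb. The rule found 22932 islands among 50546 LY19WT islands that met its chromosome and input conditions, called eligible below, or 45.4% of them. The LY19Y646F list held 47432 islands and the whole LY19WT list 58144. Because the absence of a LY19Y646F island chose them, that absence and the share of 45.4% are descriptions and not findings.

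H3K27me3, trimethylation of lysine 27 of histone H3, is written by Polycomb repressive complex 2 through its catalytic subunit EZH2 and marks silenced chromatin, often in domains that span several genes. In germinal centre B cells EZH2 holds genes of cell cycle exit and plasma cell differentiation silent, and mutations of the tyrosine at Y646 in its catalytic SET domain recur in lymphomas of this origin. The mutant enzyme favours the step from the dimethylated to the trimethylated state, whereas the wild-type enzyme is better at the earlier steps. Islands are stretches of neighbouring enriched windows that the SICER caller joins across short gaps, a scheme made for such broad marks.

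LY19Y646F cells expressed EZH2-Y646F constitutively from a CMV promoter, and LY19WT cells carried wild-type EZH2. Both were untreated immortalized lymphoma B-cell lines at passages 10 to 15, grown in RPMI with serum. Each line gave 3 ChIP libraries with a monoclonal H3K27me3 antibody and 1 input library. The labels do not say whether LY19Y646F cells also kept EZH2 without the mutation, or how many clones a line came from. Islands were called once per line, on its 3 ChIP libraries together, so the values below carry no replicate error, and neither the lines nor classes of islands were tested against each other. Islands are regions of 1 merged library and not replicates, and the absence of a called island does not show absence of the mark. The islands held 17410034 ChIP and 3527109 input reads in LY19Y646F, against 37556030 and 4949411 in LY19WT. These totals count reads inside islands, which covered 384 Mb in LY19Y646F and 555 Mb in LY19WT, and are not library depths, which are not given in the sources used here. Median input density over autosomal islands was 8.42 reads per kb in LY19Y646F and 8.41 in LY19WT. The part of ChIP depth in which islands were called was not tested.

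Islands isolated in LY19WT covered 171 Mb, which was 35.2% of the length of the eligible LY19WT islands and 7.32% of the span of the 18 chromosomes. They held 10382900 ChIP and 1450298 input reads. Their distance to the nearest LY19Y646F island had quartiles of 37.6 and 359 kb around a median of 119 kb, so most lay far beyond the limit of the rule. Of the isolated islands, 12.1% lay 10 to 20 kb away and 18.8% lay 20 to 50 kb away. A further 35.5% lay 100 to 500 kb away, and 1705 islands, 7.44% of them, lay over 1 Mb from any LY19Y646F island. Of the eligible islands outside the class, 21616 overlapped a LY19Y646F island and 5998 lay within 10 kb without overlap.

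The limit of 10 kb cut through islands with close medians on both sides of it. The 696 islands just outside it, at gaps of up to 12 kb, had a median width of 5.0 kb, 56.2 ChIP reads per kb (quartiles 51.6 and 62.5) and a median authors' fold of 2.27. The 783 islands just inside it, at gaps over 8 kb and up to 10 kb, had a median width of 4.8 kb, 56.4 ChIP reads per kb (quartiles 50.7 and 63.3) and a median fold of 2.2. The authors' fold is the ratio of ChIP to input reads in the island, scaled by 1 constant for the list. The nearest isolated islands stood at a gap of 10.2 kb, shared by 50 islands. Among them the island on chromosome 1 from 370201 to 379000 had 529 ChIP and 50 input reads, and that from 119916601 to 119919400 had 126 and 26. The nearest islands left out stood at exactly 10 kb, shared by 73 islands, such as that on chromosome 1 from 71039001 to 71042200 with 160 ChIP and 34 input reads.

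The isolated islands were not isolated from other LY19WT islands. The median gap from an isolated island to the next LY19WT island was 2.0 kb (quartiles 1.0 and 6.0), and 84.4% had 1 within 10 kb. For the other eligible islands the median gap was 1.6 kb and the share 89.1%. Read in order along a chromosome, the isolated islands fell into 2657 runs in which no LY19WT island of another class intervened. Only 822 isolated islands, 3.58% of them, stood alone in this sense, while 9655 belonged to runs of 10 to 49 and 7411, or 32.3%, to 83 runs of 50 or more. Islands in the runs of 50 or more had a median of 54.3 ChIP reads per kb (quartiles 49.6 and 60.2) and a median width of 5.0 kb, and the lone ones had 56.2 (quartiles 51 and 63.3) and 4.4 kb. Most isolated islands were thus parts of runs whose islands all lay over 10 kb from LY19Y646F. A run sets neither the spacing of its islands nor a common distance from LY19Y646F.

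Isolated islands were narrower than the rest. Their median width was 5.0 kb (quartiles 3.4 and 8.6), against 6.6 kb (3.8 and 12.8) for the other eligible islands, 7.6 kb for those that overlapped LY19Y646F and 4.6 kb for those within 10 kb without overlap. The median was smaller in isolated islands on each of the 18 chromosomes. Islands of up to 4 kb made up 37.4% of the isolated islands and 27.5% of the other eligible ones. Among isolated islands 1234, or 5.38%, were wider than 20 kb, and they made up 22.8% of the isolated length. Among the other eligible islands 3773, or 13.7%, were wider than 20 kb, and they made up 46.6% of the length. Wider than 50 kb were 112 of the isolated islands, 0.488%, against 685 of the others, 2.48%, with 1.58% of all eligible islands that wide. Wider than 100 kb were 6 isolated and 116 other islands. Width enters the rule, since a wider island reaches closer to whatever lies beside it, so the difference in width is given as a description.

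The isolated islands also carried fewer ChIP reads per kb. The median density was 54.9 reads per kb (quartiles 50 and 61.3) in isolated islands and 60.1 (53.4 and 69.5) in the other eligible islands. These ranges overlapped widely. The median was lower in isolated islands on 17 of the 18 chromosomes, the exception being chromosome 19, with 63.3 in isolated and 59.5 in other islands. On that chromosome the isolated islands had a median input density 1.19 times the autosomal median of LY19WT. The highest decile of eligible islands by ChIP density, at 75.6 reads per kb or more, included 908 isolated ones, 18% of that decile. The lowest decile, at up to 47.6 reads per kb, included 3162 isolated ones, 62.7%. Between them the isolated share went down at each step.

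**Figure D1:**
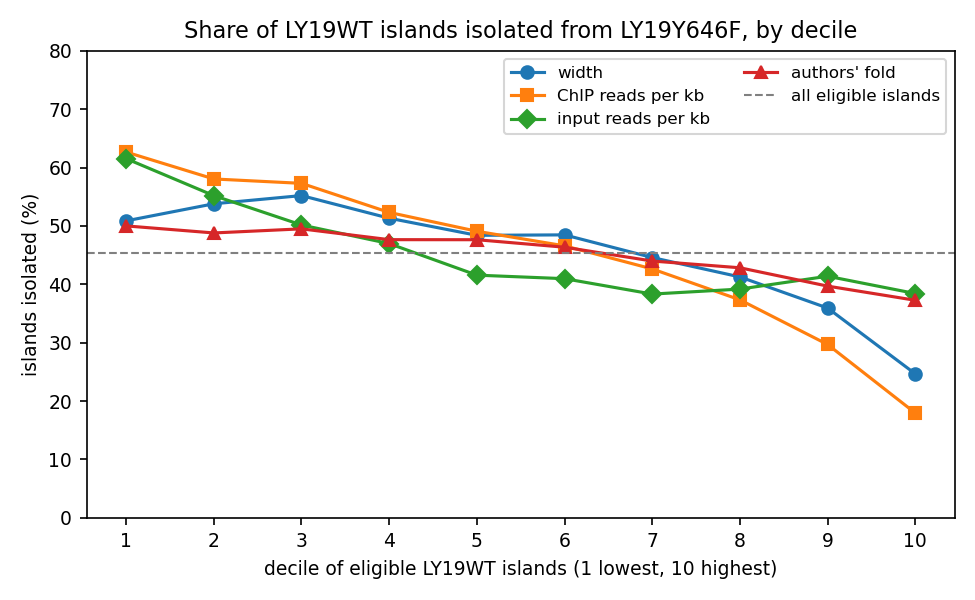
The plot gives the percent of eligible LY19WT islands that were isolated from LY19Y646F (vertical axis) in deciles of the islands by width, ChIP reads per kb, input reads per kb or authors' fold (horizontal axis, lowest decile first). The share for ChIP reads per kb runs from 62.7% in the lowest decile to 18% in the highest, and that for fold only from 50% to 37.3%, around the 45.4% of all eligible islands shown by the dashed line.

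Above 2 kb density rose with width in isolated and other islands, and the difference in density remained within classes of width. Among islands of 2 to 4 kb the median was 51.6 ChIP reads per kb in 7417 isolated and 53.3 in 6396 other islands. Among those of 4 to 8 kb it was 53.4 and 56.9, and among those of 8 to 16 kb 59.0 and 63.8. Among those of 16 to 50 kb it was 65.7 in 1794 isolated and 71.9 in 4464 other islands, and above 50 kb 75.4 and 84.0. The difference thus grew with width, from -1.11 reads per kb at up to 2 kb and -1.73 at 2 to 4 kb to -8.59 above 50 kb. In the wider classes the isolated islands were still the narrower ones. Their median width was 10.6 kb against 11 kb at 8 to 16 kb, and 22.4 kb against 25.6 kb above 16 kb. The part of this remaining width in the differences was not tested.

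**Figure D2:**
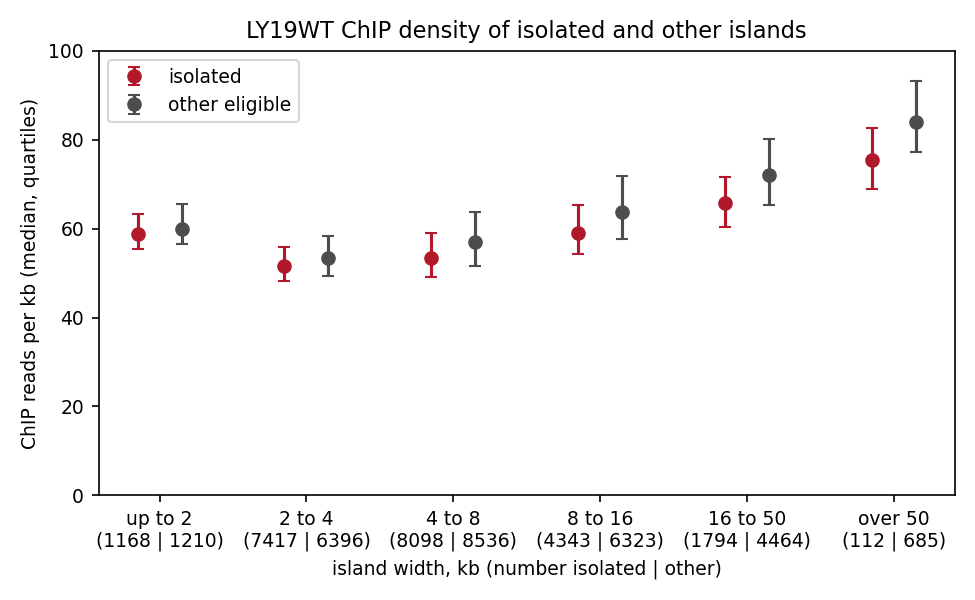
Points give the median ChIP reads per kb of isolated (red, left of each pair) and other eligible LY19WT islands (grey) in 6 classes of width in kb, and bars the quartiles over islands of the merged library, not replicates. The isolated median is the lower one in each class, at 75.4 against 84.0 above 50 kb, while the quartile ranges overlap.

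The authors' fold differed less between the classes than the density did. Its median was 2.24 (quartiles 1.88 and 2.64) in isolated islands and 2.34 (1.95 and 2.77) in the other eligible islands, and it was lower in isolated islands on 15 chromosomes and higher on 3. A fold over 3 was reached by 2688 isolated islands, 11.7%, and by 4442 other islands, 16.1%, with 14.1% of all eligible islands past that level. Within classes of like width the order depended on width. At up to 2 kb, a class added after the data were seen, the median fold was 2.40 in 1168 isolated and 2.28 in 1210 other islands, and at 2 to 4 kb it was 2.11 in isolated and 2.06 in other islands. At 4 to 8 kb it was 2.17 and 2.19, and at 16 to 50 kb 2.55 and 2.70. The input density under the fold was lower in isolated islands, at a median of 8.13 reads per kb (quartiles 7.11 and 9.33) against 8.57 (7.65 and 9.69) in the others, and the decile of eligible islands with the least input, at up to 6.43 reads per kb, was isolated to 61.5%. Mappability, base composition and DNA copies all enter that density, and their part in these differences was not tested. Among the isolated islands themselves, the Spearman rank correlation of fold with input density was -0.772 and that with ChIP density 0.475, over 22932 islands of the same 2 libraries, and the first follows from the input count being the divisor of the fold.

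Distance from LY19Y646F beyond 10 kb was hardly reflected in the islands. The median ChIP density was 56.3 reads per kb at 10 to 20 kb, 55.6 at 20 to 50 kb, 54.5 at 100 to 500 kb and 53.7 at over 1 Mb, and the median width was 5.0, 5.2, 5.2 and 4.6 kb. Islands within 10 kb that did not overlap had 56.5 reads per kb and 4.6 kb. The islands that stood apart were those that overlapped LY19Y646F, at 61.4 reads per kb. Over the isolated islands the rank correlation of distance with ChIP density was -0.105 and with width -0.0362. The median input density also went down over these distances, from 8.35 reads per kb at 10 to 20 kb to 7.78 at over 1 Mb, and the median fold was 2.22 at 10 to 20 kb and 2.31 at over 1 Mb.

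**Figure D3:**
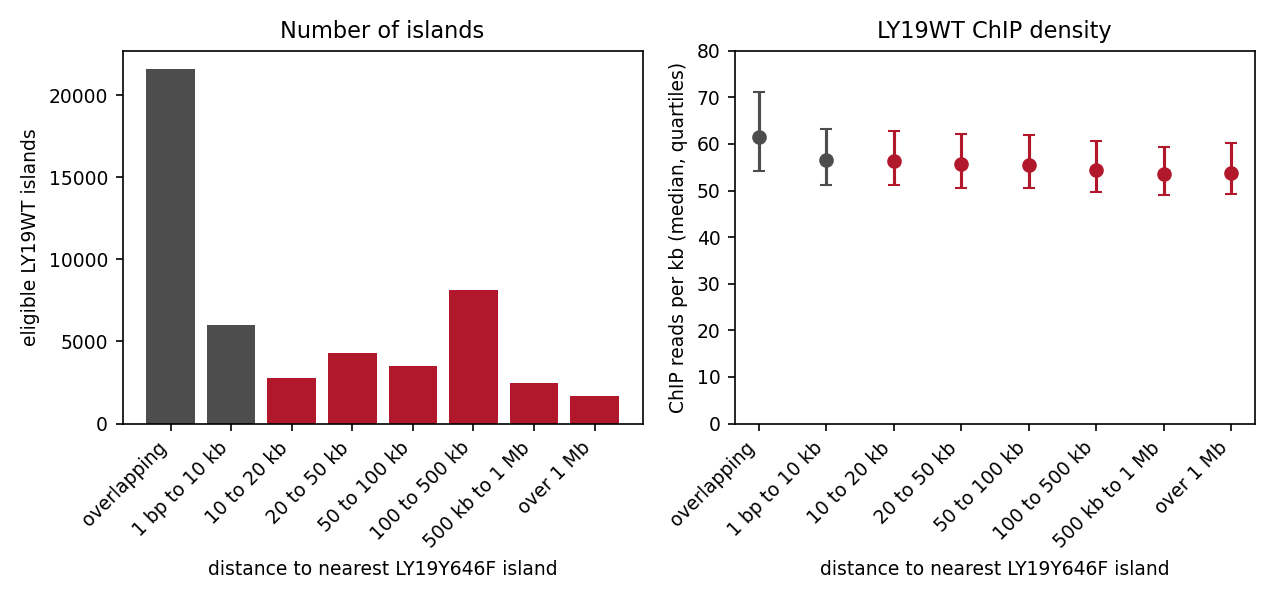
Eligible LY19WT islands are grouped by distance to the nearest LY19Y646F island (horizontal axis, isolated islands in red, others in grey). The left panel counts the islands, 8148 of them at 100 to 500 kb, and the right panel gives the median ChIP reads per kb with quartiles over islands, which lies at 61.4 for overlapping islands and between 53.6 and 56.5 in the other groups.

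The share of isolated islands differed widely between chromosomes. It was highest on chromosome 18, where 833 of 1325 eligible islands were isolated (62.9%), and on chromosomes 7 (2042 of 3539, 57.7%), 6 (54.6%), 8 (54.6%) and 3 (54.0%). It was lowest on chromosomes 20 (200 of 2034, 9.83%), 22 (105 of 808, 13%) and 17 (336 of 2004, 16.8%). Relative input of LY19Y646F, the median input density over the autosomal median, was 1.19 both on chromosome 18 and on chromosome 20, and 0.971 on chromosome 22 and 0.969 on chromosome 17. Chromosome 18 was uneven. Its bins of 10 Mb from 0 to 40 Mb held 565 of its 833 isolated islands, 91.9% of 615 eligible ones, at a relative LY19Y646F input of 0.714 to 0.876. Its remaining bins held 268 of 710, 37.7%, at 1.17 to 1.27. Chromosome 2 held the most, 2817 islands over 19.6 Mb. On chromosomes 11 and 7 isolated islands covered the largest parts of the chromosome span, 10.5% and 10.6%.

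LY19Y646F islands covered the chromosomes to different extents, which limits how much of each chromosome could hold an isolated LY19WT island. Of the span of chromosome 20, 39.0% lay over 10 kb from any LY19Y646F island, which covered 40.1% of that chromosome. On chromosome 18 the corresponding shares were 77.7% and 13.9%. Over the 18 chromosomes together 68.7% of the span lay over 10 kb from any LY19Y646F island, and the 45.4% of eligible LY19WT islands that were isolated stood below it. The isolated share was below the share of span on each of the 18 chromosomes. These are unlike measures, one of islands and the other of bases. The span includes stretches without any LY19WT island, such as chromosome 1 from 121473601 to 143173400. An island must also lie over 10 kb away along its whole width. Both lower the isolated share beside that of span, so its lower place is not a finding. The rank correlation between the 2 shares was 0.589 over 18 chromosomes, which share the same LY19Y646F list. Chromosome 21 fell away from the order, with 31.2% of 404 eligible islands isolated at 75.1% of span far from LY19Y646F, as did chromosome 19, with 26.1% of 989 at 69.6%.

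**Figure D4:**
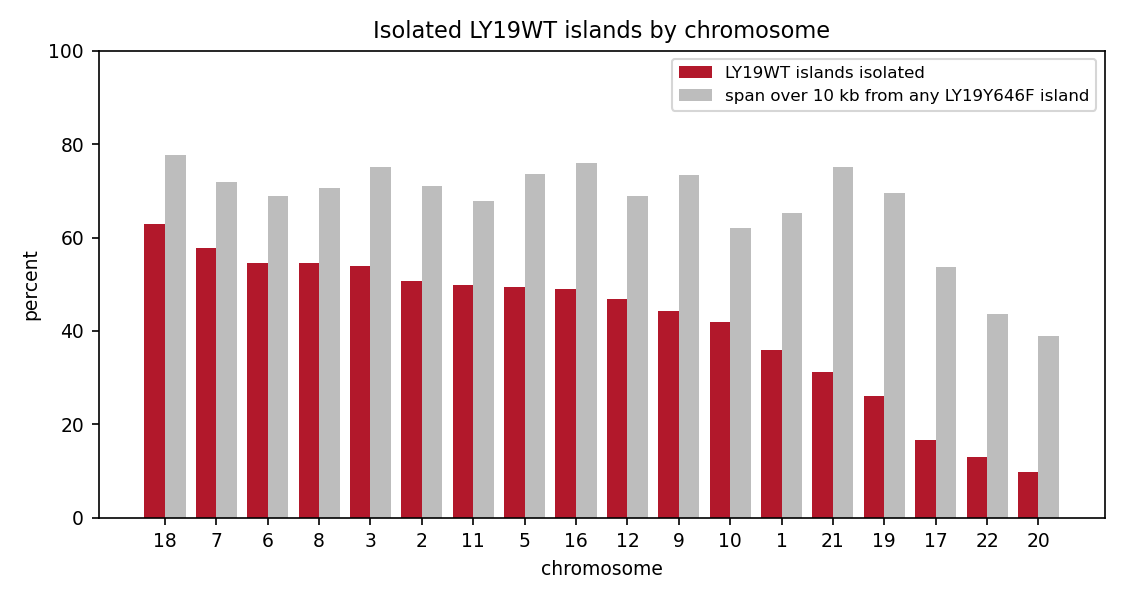
For each of 18 autosomes, ordered by the first bar, red bars give the percent of eligible LY19WT islands that were isolated and grey bars the percent of the chromosome span over 10 kb from any LY19Y646F island. The red bar runs from 62.9% on chromosome 18 to 9.83% on chromosome 20 and is the shorter of the pair throughout.

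At the scale of 10 Mb the isolated islands were gathered in some parts of the genome and nearly missing from others. In 234 bins of 10 Mb with at least 20 eligible islands, the isolated share had a median of 44.4% (quartiles 21.3 and 67.0). In 14 bins at least 90% of the islands were isolated, and these held 2527 islands, 11% of the class. From 40 to 50 Mb of chromosome 2 all 136 eligible islands were isolated and LY19Y646F had 0 islands. From 80 to 90 Mb of chromosome 12 all 146 were isolated, beside 14 LY19Y646F islands. From 80 to 90 Mb of chromosome 7 it was 288 of 292, and from 120 to 130 Mb of chromosome 6 357 of 373. At the other end were 23 bins with at most 10% isolated, of which 4 lay on chromosome 20, 3 on chromosome 22, 3 on chromosome 17 and 3 on chromosome 1. From 40 to 50 Mb of chromosome 20 only 6 of 368 were isolated, and from 20 to 30 Mb of chromosome 22 only 5 of 220.

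Input depth around the islands moved with the isolated share in some bins. In the 14 bins where LY19Y646F input lay over 15% below its autosomal median, 1534 of 2354 eligible LY19WT islands were isolated, 65.2%. Of these 14 bins, 3 lay on chromosome 18, with 382 of 426 islands isolated (89.7%). Without that chromosome the share in the other 11 was 59.8%, 1152 of 1928. These 11 included the adjoining bins from 40 to 90 Mb of chromosome 16, at a LY19Y646F input of 0.639 to 0.824. There 84 of 118, 208 of 273, 49 of 96, 269 of 309 and 192 of 383 islands were isolated. The rest were mixed: 161 of 230 on chromosome 6, 149 of 195 on 19 and 3 of 3 on 21. On chromosomes 8, 10 and 12 it was 20 of 126, 14 of 138 and 3 of 57. The raised share was thus not common to all 11. In the 207 bins within 15% of the LY19Y646F median the isolated share was 45.7%, and in the 16 bins over 15% above it 24.5%, 811 of 3312. Of these 16 bins, 5 lay on chromosome 20, with 172 of 1663 islands isolated (10.3%), and without that chromosome the share in the other 11 was 38.8%, 639 of 1649. By LY19WT input the shares were 44.9% in 204 bins within 15% and 49% in 30 bins over 15% above. In the 2 bins over 15% below, the share was 15.2%, 21 of 138 islands. In bins where both inputs lay within 15% of the median, 17702 of 38950 islands were isolated, 45.4%, the same share as over all bins. Of the 14 bins with at least 90% isolated, 11 were of this kind. Fewer DNA copies in LY19Y646F and loss of the mark there cannot be told apart from these lists where LY19Y646F input was low, as from 0 to 10 Mb of chromosome 18, where 174 of 187 islands were isolated at a LY19Y646F input of 0.809 times the median.

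The LY19Y646F list left 9910 gaps of over 20 kb between neighbouring islands on the 18 chromosomes. Of these, 2813 held at least 1 isolated LY19WT island, 28.4%, and 7097 held none. The isolated islands were concentrated: 202 gaps held 50% of them, and 81 gaps with at least 50 islands each held 6968, 30.4%. Of 241 gaps over 1 Mb, 209 held isolated islands, in all 9397 or 41.0% of the class, and 31 held no LY19WT island at all.

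Gaps with the most isolated islands were several megabases long and covered by islands to a small part. The one on chromosome 7 from 77916601 to 86683000 held 242 isolated islands that covered 18.5% of it, with a median of 53.5 ChIP reads per kb and a median fold of 2.34. The one on chromosome 2 from 38001801 to 53695800, 15.7 Mb long, held 221 that covered 12.1%. That on chromosome 3 from 45182001 to 54289200 held 184 that covered 19.4%, and a shorter one on chromosome 2 from 163069001 to 166561800 held 184 that covered 32.6%. Relative input over the bins of these gaps lay between 0.925 and 1.01 in LY19Y646F for 3 of the 4, and between 0.910 and 0.996 in LY19WT for all 4. For the gap of 15.7 Mb on chromosome 2 the LY19Y646F value of 1.07 comes from the bins at its 2 ends alone, since LY19Y646F had 0 islands and so no input value from 40 to 50 Mb. The longest gap of all, on chromosome 3 from 75609201 to 97555600, held only 2 isolated islands, and the gap on chromosome 1 from 121473601 to 143173400 held 0.

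Some shorter gaps were filled almost from edge to edge. Of 534 gaps over 500 kb, 37 were covered to at least 50% by isolated islands. Coverage was highest on chromosome 3 from 70240801 to 70888400, where 36 isolated islands covered 81.0% of the gap, the widest of them 87.2 kb, at a median of 61.2 ChIP reads per kb. Then came chromosome 11 from 123625001 to 124298000, where 40 islands covered 78.6% at a median of 63.6 reads per kb and a median fold of 2.76. On chromosome 18 from 10711801 to 11625800, 46 islands covered 76.9%, at a relative input of 0.714 in LY19Y646F and 0.991 in LY19WT. On chromosome 7 from 31750001 to 32252400, 23 islands covered 74.4%, at a relative input of 1.03 in LY19Y646F and 1.40 in LY19WT. On chromosome 3 from 131339001 to 131854600, 31 islands covered 74.6%, at a relative input of 1.01 in LY19Y646F and 0.967 in LY19WT. Of these 5 gaps, 3 thus had input within 15% of the median in both lines.

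**Figure D5:**
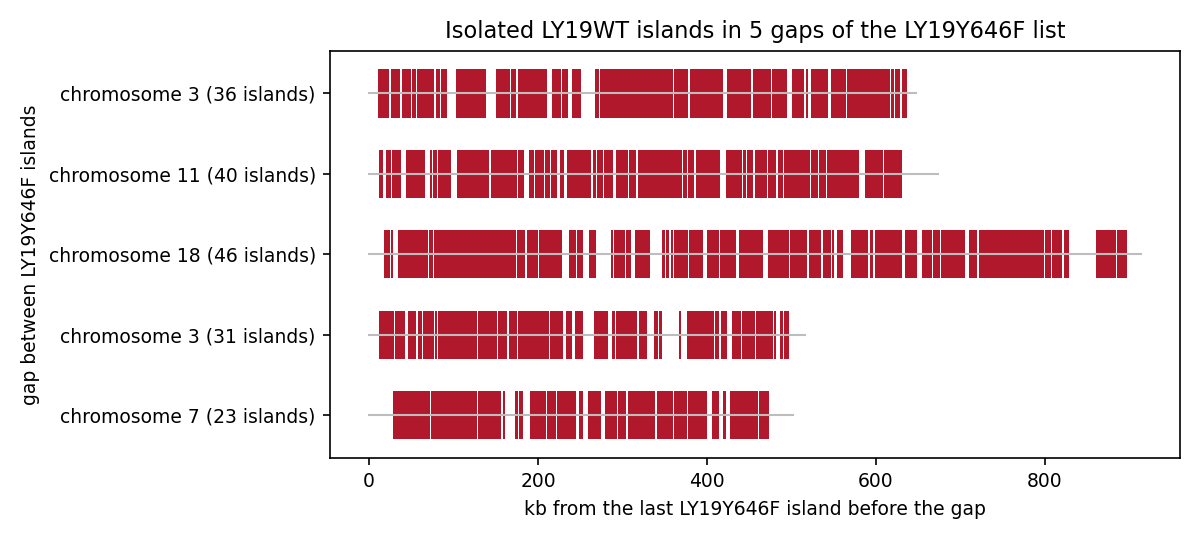
Each line is a gap between neighbouring LY19Y646F islands, 1 of the 5 gaps over 500 kb with the largest part covered by isolated LY19WT islands, drawn to scale in kb from the LY19Y646F island before it, with the isolated islands as red blocks. From the top the blocks cover 81.0%, 78.6%, 76.9%, 74.6% and 74.4% of the gap.

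The longest run of isolated islands lay on chromosome 7 from 77929001 to 89903200. It held 325 islands over 12 Mb without another kind of LY19WT island, with ChIP densities from 37.8 to 73.7 reads per kb and a widest island of 47.6 kb. LY19Y646F had 7 islands in the same stretch, each over 10 kb from the LY19WT ones. The next, on chromosome 12 from 72472201 to 91641200, held 268 islands with a median width of 4.3 kb beside 50 LY19Y646F islands. That on chromosome 2 from 38018201 to 50698000 held 221 islands of up to 59.2 kb and had 0 LY19Y646F islands.

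The widest isolated islands were domains of over 100 kb. On chromosome 8 an island ran from 68889001 to 69108400, 219.4 kb wide, with 17504 ChIP and 1847 input reads. Its fold was 3.08 (95% exact Clopper-Pearson interval 2.94 to 3.24, which like all such intervals here covers counting error only), and the nearest LY19Y646F island lay 225 kb away. On chromosome 22 an island from 36103001 to 36211200 held 102.5 ChIP reads per kb, beside the median of 54.9 for all isolated islands, at a fold of 3.95 (3.69 to 4.23), 64 kb from LY19Y646F. On chromosome 2 an island from 198857201 to 198980600, 123.4 kb wide, had a fold of 2.88 (2.70 to 3.07). The relative input of the bins of these 3 islands lay between 0.977 and 1.04 in LY19Y646F and between 0.927 and 1.03 in LY19WT.

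The other widest islands lay on chromosome 6 where LY19WT input was raised. The island from 146438401 to 146611200, 172.8 kb wide, had 15701 ChIP and 2051 input reads, a fold of 2.49 (2.38 to 2.61) and no LY19Y646F island within 909.4 kb. The island from 153330201 to 153450200, 120.0 kb wide, had a fold of 2.36 (2.23 to 2.50). Relative input in these bins was 1.04 and 1.03 in LY19Y646F and 1.40 and 1.42 in LY19WT. Their folds lay below those of the other 3 widest islands, while their densities of 90.9 and 85.1 ChIP reads per kb lay above that of the chromosome 8 island, at 79.8.

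Folds are named here only for isolated islands with at least 20 input reads. Isolated islands with fewer input reads reached folds of up to 23.1. Among those with at least 20, the 5 with the highest fold were 2.2 to 10.0 kb wide and held up to 74 input reads. Of these, the island on chromosome 10 from 46662801 to 46671200 had the highest fold, 7.06 (4.52 to 11.7), from 434 ChIP and 20 input reads at only 2.38 input reads per kb. An island of 10.0 kb on chromosome 3 from 57102801 to 57112800 followed at 5.87 (4.64 to 7.52), with 1334 ChIP reads, 133.4 per kb, at an ordinary 7.40 input reads per kb. It was also among the 5 densest, and lay 21.8 kb from the next LY19Y646F island. On chromosome 19 the island from 42439201 to 42442600 had a fold of 5.47 (3.65 to 8.55), and on chromosome 2 the island from 105462201 to 105470000 had 5.37 (3.93 to 7.52). The intervals of these 4 folds overlap, so they cannot be ranked at this depth.

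The densest isolated island was that on chromosome 10 from 51487001 to 51489200, with 149.5 ChIP reads per kb over 2.2 kb and a fold of 5.35 (3.41 to 8.88). A pair of neighbouring islands on chromosome 19, from 2962601 to 3000000 and from 3007001 to 3035200, had 130.0 and 135.4 reads per kb at folds of 3.51 (3.18 to 3.87) and 3.47 (3.11 to 3.88). They lay 861.4 and 826.2 kb from LY19Y646F, in a run of 78 isolated islands, where relative input was 0.849 in LY19Y646F and 1.43 in LY19WT. The island on chromosome 2 from 90448801 to 90473800 reached 133.6 reads per kb at 23.8 input reads per kb, near the cap of the rule, and its fold was only 1.83 (1.67 to 2.0).

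The isolated islands farthest from LY19Y646F were 2.8 to 4.6 kb wide and had 49 to 69.3 ChIP reads per kb, the highest of these above the 90th percentile of isolated islands, at 68.5. On chromosome 3 the neighbours from 87594401 to 87597400 and from 87598401 to 87601200, of 3.0 and 2.8 kb, lay 9958.2 and 9954.4 kb away, with 147 and 142 ChIP reads and folds of 1.91 (1.25 to 3.05) and 2.10 (1.33 to 3.46). They were the only LY19WT islands in the longest gap of the LY19Y646F list. On chromosome 2 the islands from 46526401 to 46531000, from 45032801 to 45037400 and from 47110201 to 47113200 lay between 6582.6 and 7164.8 kb away, at 55.7, 59.1 and 69.3 ChIP reads per kb. The next LY19WT island was 579.2, 518 and 360.4 kb off, so these 3, unlike most of the class, were also far from other LY19WT islands.

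The same rule with the lists exchanged found fewer islands. In LY19Y646F, 14511 of 44651 eligible islands were isolated from LY19WT, 32.5%, and they covered 102 Mb, 28.0% of the eligible LY19Y646F length, against 45.4% of islands and 35.2% of length in LY19WT. The isolated share was lower in LY19Y646F than in LY19WT on 14 of 18 chromosomes. Among the exceptions, on chromosome 22 it was 36.7% in LY19Y646F and 13% in LY19WT, and on chromosome 20 it was 19.0% in LY19Y646F and 9.83% in LY19WT. On chromosome 11 it was 18.9% in LY19Y646F and 49.9% in LY19WT. Isolated LY19Y646F islands were narrower than the other eligible islands of their list too, at a median of 5.4 and 6.2 kb. Their median ChIP density was also lower, at 41.25 reads per kb (quartiles 38.5 and 44.3) against 42.2 (39.2 and 45.7). Their median fold was 1.83 against 1.92 in the others, beside 2.24 against 2.34 in LY19WT. A lower density and fold of isolated islands were thus not particular to LY19WT. The lists differed in covered length. With the LY19WT islands of lowest p-value kept to the length of the LY19Y646F list, the isolated share in LY19WT was 34.9%. The 32.5% in LY19Y646F was taken against the whole LY19WT list. Whether the difference between the lines exceeds the spread between replicates could not be tested.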

How the data were processed

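The data were H3K27me3 ChIP-seq and input libraries of the LY19Y646F and LY19WT lymphoma lines, 3 ChIP libraries and 1 input each. The submitters' processing notes name build hg19 and the tools bedtools, SICER, Bowtie2 (2.2.9) and SAMtools (1.3.1), and per the labels the ChIP replicates were merged and islands called against input at an FDR of 0.001. For SICER and bedtools, a version is not given in the sources used here. The authors' files, per the file headers, hold counts of ChIP and input reads per island, a fold, which is a linear ratio, and a p-value and FDR. The deposited fold equalled the ratio of the counts divided by 2.62 in LY19Y646F and 3.07 in LY19WT. Island widths were multiples of 200 bp and islands of a list lay at least 800 bp apart, so weakly marked stretches below the threshold between islands are not seen.

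Distances are bases between island edges, and an island at exactly 10 kb was not taken. Positions are 1-based on hg19. Input density is input reads per kb, and its median in 10 Mb bins with at least 5 islands was divided by the autosomal median, 8.42 reads per kb in LY19Y646F and 8.41 in LY19WT. Fold intervals at 95% are exact for the share of ChIP reads among ChIP and input reads. Islands named singly are the 5 widest, the 5 with the highest fold at 20 or more input reads, the 5 densest, the 5 farthest, the 3 longest runs and those nearest the 10 kb limit. Gaps, bins, runs by size and deciles were chosen after seeing the data. The members, lists and comparisons were chosen with earlier results of these data known. Planned gene, promoter and base composition descriptions were not made, because the gene and promoter tables at hand were on GRCh38.p14. The distance step was tested on simulated lists with known answers. Python 3.11.15, numpy 2.4.6, pandas 2.3.3 and matplotlib 3.10.9 were used.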

Additional observations from a re-analysis of the deposited data

Results flagged for a closer look

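Islands outside the chromosomes and input range described above also lay over 10 kb from any LY19Y646F island. On chromosomes 4, 13, 14 and 15 these were 5477 of 7286 LY19WT islands, 75.2%, led by chromosome 4 with 2205 of 2454. Relative input on chromosome 4 was 0.827 in LY19Y646F and 0.955 in LY19WT. In LY19Y646F and LY19WT it was 0.990 and 1.40 on chromosome 13, 0.768 and 0.984 on chromosome 14, and 0.752 and 0.994 on chromosome 15. On chromosome X the islands over 10 kb away were 284 of 290 LY19WT islands, 97.9%, where LY19Y646F had 28 islands. Relative input on X was 1.05 in LY19Y646F and 0.495 in LY19WT. Among islands over 25 input reads per kb on the other autosomes they were 2 of 22, 1 on chromosome 1 (121133201 to 121141800) with an input density of 29.8 reads per kb and 1 on chromosome 7 (102214401 to 102224400) with 26.5.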

How the results depend on the processing

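No paired analysis was possible because the replicates had been merged before islands were called, and for the same reason no replicate could be left out. The gene and promoter alternatives were not run. Isolated islands had the lower median width in all 15 settings tried and the lower ChIP density in all 20. They had the lower fold in 18 of 20, the exceptions being islands of 2 to 4 kb, where isolated minus other was 0.0518 (density -1.73), and of up to 2 kb, a class added after the data were seen, where it was 0.120 (density -1.11). The cause was not tested.

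The isolated share of 45.4% became 49.8%, 39.9%, 31.3% and 24.4% at limits of 5, 20, 50 and 100 kb, with 12318 islands at 100 kb. At the same limits the difference in density, isolated minus other, was -5.54, -4.98, -4.62 and -4.58 reads per kb, against -5.23 in the report, and that in fold was -0.116, -0.0887, -0.0721 and -0.0641, against -0.102. The difference in width was -1.8 kb at 5 kb and -1.2 kb at 50 and 100 kb, against -1.6 kb. With all autosomes the share was 49.1%, and without chromosomes 16 and 18 also it was 44.7% at a density difference of -5.41. With an FDR of at most 1e-05 in both lists the share was 46.5% (density -5.45), with 1e-10 in both 50.4% (density -5.67), and with 1e-10 in LY19WT alone 44.7% (width -1.8 kb, density -5.61, fold -0.0910). In bins of normal input the fold difference was -0.0766.

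Keeping the LY19WT islands of lowest p-value until their length matched that of the LY19Y646F list left 6656 isolated islands, 34.9%, fewer islands by construction, with differences of -2.4 kb, -6.35 reads per kb and -0.0620 in fold. Joined across 5 kb there were 10581, 45.9%, with -5.6 kb and -6.07 reads per kb. By width, the density and fold differences were -3.53 and -0.0195 at 4 to 8 kb, -4.80 and -0.0759 at 8 to 16 kb and -7.29 and -0.176 above 16 kb. Against overlapping islands alone they were -6.53 and -0.138, with -2.6 kb in width. The share of 24.5% in bins of high LY19Y646F input was 38.8% without chromosome 20, a setting added after the data were seen. Island calls depend on read depth. The constant that divided the ratio of ChIP to input reads in the fold was 3.07 in LY19WT and 2.62 in LY19Y646F. Median input density over autosomal islands was 8.41 and 8.42 reads per kb. Without reads the ChIP depths of the lines could not be compared directly or made equal, and their part in the number of islands was not tested.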

Other observations

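LY19Y646F islands isolated by the same rule lay in 1458 of the 2075 windows of 1 Mb with an eligible island of either list, and isolated LY19WT islands in 1532. Both kinds lay in 939 windows, 64.4% of the first and 61.3% of the second. These shares were below those over all windows, 1532 of 2075 and 1458 of 2075. Windows with at least 10 isolated islands numbered 547 in LY19Y646F and 753 in LY19WT. At least 10 of both lay in 48 windows, 8.78% of the first and 6.37% of the second. These too were below the shares over all windows, 753 of 2075 and 547 of 2075. Each kind is defined by the absence of the other list within 10 kb, which limits how often both share a window. The lower shares are therefore descriptions and not findings. The fullest window for LY19WT by covered length was from 146 to 147 Mb of chromosome 6, where 24 isolated islands covered 68.3%, followed by 93 to 94 Mb of chromosome 7, where 54 covered 67.1%. From 11 to 12 Mb and from 22 to 23 Mb of chromosome 18, 52 and 59 isolated islands covered 65.0% and 63.9%.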
